A study of Mus musculus with 6 samples.

Results

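Ikaros binding was mapped by chromatin immunoprecipitation with sequencing in natural killer (NK) cells of the mouse spleen, and 275 genomic regions were examined that were called in every wild-type (WT) peak list and lay within exactly 1 protein-coding gene. Members were chosen on the calls themselves. Peaks of the lists of WT replicates 1, 2 and 3 that shared at least 1 base were joined, which gave 2526 regions, and 500 of these held a peak of all 3 lists (19.8%). The authors' own gene column, read at a distance of 0, then named 1 gene, a protein-coding one, at 275 of the 500 (55.0%, 95% Clopper-Pearson interval 50.5 to 59.4). Of the remainder, 112 had no gene at distance 0, 91 had 2 or more and 22 had 1 gene that was not protein-coding. Intervals here and below cover counting error only. The 275 regions lay in 271 genes, since 4 genes held 2 regions each. Asking for the lists of replicates 2 and 3 alone, without replicate 1, gave 528 regions. Of the 275, 273 overlapped one of them, which follows largely from the rule, since every member holds a peak of both lists.

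The series held 6 samples, 3 WT and 3 with an NKp46-conditional knockout of Ikzf1, the gene of Ikaros. NKp46 is a receptor of NK cells, encoded by Ncr1. Both genotypes were grown outside the animal in medium with IL-15 at 50 ng/ml, fixed in 2% formaldehyde, sheared to fragments of 100 to 200 bp and precipitated with 2 µg of the same antibody against IKZF1. The WT lists alone were used. The knockout samples were not analysed here, so signal that the antibody may give without Ikaros was not measured. What control the authors' peak calling used was not given. Strain, age and sex were not given, and the labels do not say whether replicates came from separate animals or cultures. Peak lists do not measure expression, so the cell type named in the labels could not be checked against marker RNA. The lists held 685, 2084 and 1342 peaks, and since they hold no read counts the depth of each library is unknown.

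Ikaros is a DNA-binding zinc finger protein of the lymphoid lineages that can both repress and activate genes, in part through chromatin remodelling complexes. Its fingers are known to read a core with the letters GGGAA. It may sit at promoters, where transcription starts, or at distal sites inside or between genes. In NK cells, Ikaros and its relative Aiolos (Ikzf3) are studied as regulators of maturation and of the response to cytokines such as IL-15.

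Promoter sequence is shown for the 6 strongest regions that overlapped a promoter window, because they are the strongest members at a start and differ in how often they hold the Ikaros core. Strength is the mean percentile of a region, its rank by fold enrichment within each list averaged over the 3 lists, with 100 for the strongest peak. Each line gives the 250 bases before the start that RefSeq lists for the gene (GRCm38.p6, the assembly of mm10), 5′ to 3′ on the strand of the gene, and capitals mark GGGAA or its reverse complement TTCCC.
Cish: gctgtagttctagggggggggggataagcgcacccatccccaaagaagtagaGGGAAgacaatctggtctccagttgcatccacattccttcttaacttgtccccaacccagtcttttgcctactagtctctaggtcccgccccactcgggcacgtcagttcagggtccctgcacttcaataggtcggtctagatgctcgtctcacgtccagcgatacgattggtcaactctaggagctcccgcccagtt
Cenpu: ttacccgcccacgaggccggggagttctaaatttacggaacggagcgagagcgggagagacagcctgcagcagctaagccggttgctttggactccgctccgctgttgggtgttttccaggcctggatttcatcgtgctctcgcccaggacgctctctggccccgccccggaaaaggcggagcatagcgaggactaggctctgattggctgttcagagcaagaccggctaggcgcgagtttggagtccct
Emsy: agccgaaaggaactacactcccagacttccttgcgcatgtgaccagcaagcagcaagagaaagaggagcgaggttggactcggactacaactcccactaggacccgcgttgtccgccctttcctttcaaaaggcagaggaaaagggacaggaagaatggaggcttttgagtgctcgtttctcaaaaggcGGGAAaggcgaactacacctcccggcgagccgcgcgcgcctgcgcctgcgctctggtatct
Zfp260: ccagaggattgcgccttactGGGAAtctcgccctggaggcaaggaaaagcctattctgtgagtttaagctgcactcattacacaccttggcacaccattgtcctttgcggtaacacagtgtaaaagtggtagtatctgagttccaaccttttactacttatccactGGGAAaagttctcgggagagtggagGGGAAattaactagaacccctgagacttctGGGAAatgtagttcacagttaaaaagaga
Mcm3: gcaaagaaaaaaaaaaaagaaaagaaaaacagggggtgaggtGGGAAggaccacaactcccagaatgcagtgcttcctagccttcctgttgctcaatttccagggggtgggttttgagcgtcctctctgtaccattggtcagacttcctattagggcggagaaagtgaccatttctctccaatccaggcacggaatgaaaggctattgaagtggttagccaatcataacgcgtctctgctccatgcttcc
Ddx20: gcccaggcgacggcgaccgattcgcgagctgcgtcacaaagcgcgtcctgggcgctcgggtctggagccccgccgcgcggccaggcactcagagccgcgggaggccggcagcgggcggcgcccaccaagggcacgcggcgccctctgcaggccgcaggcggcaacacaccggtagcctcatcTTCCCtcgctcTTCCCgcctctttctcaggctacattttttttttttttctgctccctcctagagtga

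Cish encodes a feedback inhibitor of cytokine signalling that restrains the response of NK cells to IL-15. Its region (chr9:107296290-107297176) reached fold enrichments of 12.7, 17.6 and 13.8 in the lists of replicates 1, 2 and 3, in that order here and below, and was the strongest of those near a start. Its midpoint lay 0.0740 kb after the start, and the region covered all 250 bases shown (chr9:107296409-107296658, plus strand), which hold 1 GGGAA-type match. Cenpu, a centromere protein gene, had 10.8, 10.5 and 14.0 (chr8:46551710-46552041). Of the bases shown for it (chr8:46551819-46552068, plus strand) 223 lay under the region, and the 250 hold 0 matches. The region at Emsy, whose product binds BRCA2, had 8.86, 11.6 and 13.8 (chr7:98656505-98656985) and covered the whole stretch (chr7:98656578-98656827, minus strand), with 1 match. Zfp260, a zinc finger gene that the authors mark as a transcription factor, had 8.18, 14.8 and 13.7 (chr7:30094681-30095174). Its 250 bases (chr7:30094826-30095075, plus strand) hold 4 matches, the most among the 6. Mcm3, a subunit of the helicase that opens DNA for replication, had 8.63, 9.87 and 9.06 (chr1:20820120-20820575) with 1 match in its stretch (chr1:20820313-20820562, minus strand). Ddx20, an RNA helicase gene, had 7.66, 13.6 and 9.29 (chr3:105687343-105687678). Its region reached 107 of the bases shown (chr3:105687572-105687821, minus strand), which hold 2 matches, both as TTCCC.

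Across all members that overlapped a promoter window, the Ikaros core was common, as it was in promoters at large. A window was the 250 bases before a listed start and the 50 after it, and 133 members overlapped one. GGGAA, read on both strands, was in 72.9% of these windows (64.5 to 80.3), in 64.0% of 161 windows under regions of exactly 2 lists and in 66.1% of 286 under regions of 1 list. Among 21263 windows of 17492 coding genes the share was 63.0%. CCGGAA, the core of ETS factors, was in 30.1% of member windows (22.4 to 38.6), 34.2% and 32.5% of those under regions of 2 lists and 1 list, and 18.7% of all windows. On one strand the same GGAA cannot count for both motifs, since the letter before it differs, but matches on opposite strands can share bases. TGANTCA, the AP-1 site, was in 6.02% of member windows (2.63 to 11.5) against 6.99% of all, and TGACGTCA, the CRE site, in 2.26% (0.468 to 6.45) against 2.23%. Member windows also had more G and C: the median was 66.0%, against 56.3% over all windows, and the median ratio of observed to expected CpG was 0.869 against 0.567. The part of base composition in these shares was not tested. A match of letters is not a measured binding site.

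Most members sat at the start of their gene. Starts were taken from the RefSeq promoter table for 219 members. For 53 whose gene has no listed start the nearer gene end of the RefSeq gene table was used, and 3 members, in Gm21738, Gm21987 and Gm20388, could not be placed. Of 272 placed members, 174 had their midpoint within 1 kb of the start or end (64.0%, 58.0 to 69.7). With listed starts alone the share was 147 of 219 (67.1%, 60.5 to 73.3), and 127 of the 219 covered the start base itself (58.0%, 51.2 to 64.6). The midpoints of the 147 ran from -567.5 to 818 bp around the start, with a median of -20 bp, where negative values lie before it, and 81 of them lay before the start.

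Regions seen in fewer lists also lay mostly within 1 kb of a start or end, with a smaller share of those of 1 list over the start itself. Within 1 coding gene, 327 regions were in exactly 2 lists and 771 in 1 list. The share within 1 kb was 71.1% for regions of 2 lists (65.8 to 76.0) and 59.0% for those of 1 list (55.4 to 62.5). The interval of the members overlapped both, while the intervals for 2 lists and 1 list did not overlap each other. A listed start was covered by 54.8% of regions of 2 lists (48.5 to 61.0) and 41.8% of regions of 1 list (37.8 to 45.9), the latter below the interval of the members. A merged region is the union of its peaks, so regions of more lists are wider by construction: the median width was 448 bp for members, 343 bp for 2 lists and 261 bp for 1 list. The span common to all 3 peaks of a member had a median of 245 bp. The part of width in the share that covered a start was not tested. Taking each list on its own, peaks within 1 coding gene were within 1 kb in 66.3%, 59.6% and 69.9% of cases in replicates 1, 2 and 3 (mean 65.2%, SD 5.24, n = 3). Regions are not replicates of a condition, so no test was made over them.

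**Figure D1:**
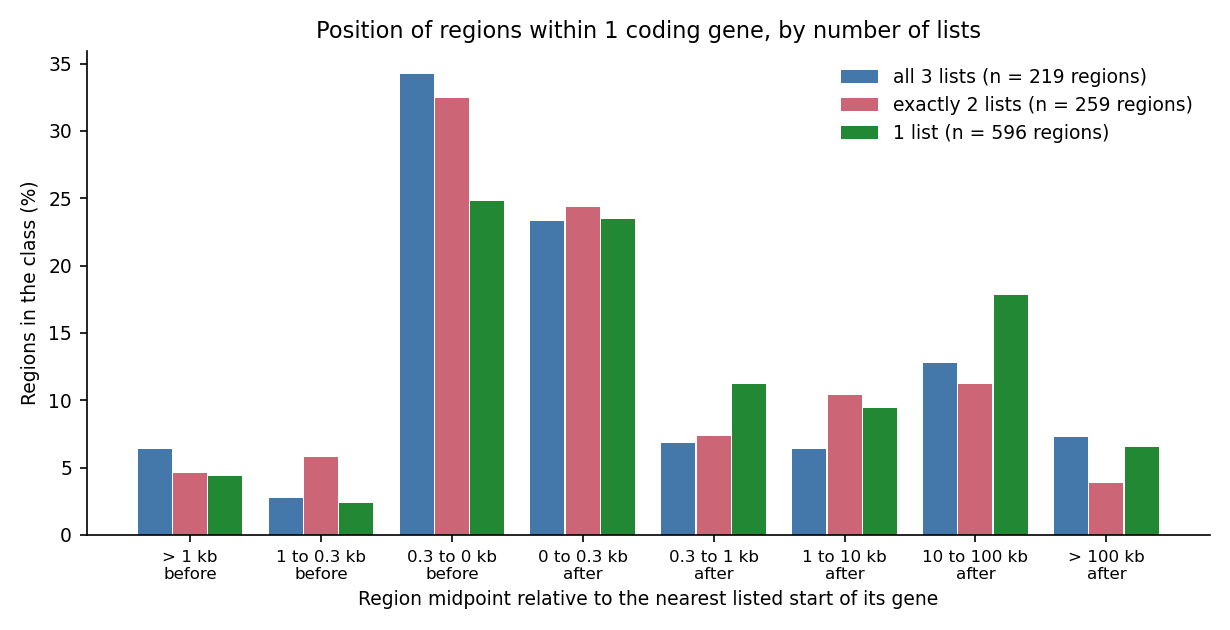
Share of regions within 1 coding gene (vertical axis, percent) in 8 classes by where the midpoint lies relative to the nearest listed start of the gene (horizontal axis), for regions in all 3 lists, in exactly 2 and in 1. Bars are shares of the regions with a listed start. The tallest class of each group lies within 0.3 kb before the start, and holds 34.2% of the regions in all lists and 24.8% of those in 1 list.

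Members away from a listed start were mostly far from it and in long genes. Of the 72 with a listed start, distances ran from 1.08 to 319 kb with a median of 32.0 kb, and 16 of them lay over 100 kb after it. The 65 that fell inside the RefSeq span of their gene were scattered along it. Split into 3 equal stretches from the start, the gene held 24, 18 and 23 of them, with a median place at 46.1% of the gene's length. A few lay at the very beginning of that span though over 1 kb from the nearest listed start. Examples were Phf21a, at 0.0702% of the gene's length, and Smarcd2, at 0.595%. Only 3 of the 72 were within 1 kb of the far end of the gene. The median length of the gene was 96.0 kb over distal members and 33.7 kb over members near a start or end, against 17.1 kb for all coding genes. A site over 1 kb inside a gene needs a gene long enough to hold it, so the difference follows in part from the classes. The medians of members count regions, and that of all coding genes counts genes. Listed starts of other genes were within 1 kb of 3 distal members. These were in Cdk6 (20 bp from the start of the lncRNA Gm36470), Col15a1 (49.5 bp from the lncRNA Gm52732) and Podxl2 (376 bp from the coding gene Abtb1). The promoter table does not list a start for every coding gene, so others may have been missed.

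The strongest members were distal. By mean percentile, 17 placed members ranked above Cish, the first near a start, and none of the top 10 was placed near the start or end of its named gene. The region in Tiam1, which encodes an activator of the GTPase Rac, led all members at chr16:89904958-89905892, 69.3 kb after the start. Its fold enrichments of 46.2, 80.4 and 70.7 were the highest of any member in each replicate. The region named for Gm21987 (chr16:38353067-38353712) followed with 37.2, 63.3 and 57.4. Gm21987 was in neither RefSeq table, so this member counted as unplaced. Its midpoint was 0.627 kb from the nearest coding gene end, that of Cox17, the gene of a mitochondrial copper chaperone.

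In Mbd5, of the methyl-CpG-binding domain family, a region 41.3 kb after the start (chr2:48990471-48991063) had 20.5, 48.9 and 31.4. Fcho2, which encodes a membrane-bending protein of endocytosis, held a region 77.4 kb after its start (chr13:98737703-98738385) with 20.4, 42.9 and 32.4. Snx29, a sorting nexin gene, had 19.5, 39.7 and 35.1 at chr16:11686012-11688076, 281 kb after the start. The region named for the claudin gene Cldn12 (chr5:5490324-5491186) had 19.5, 45.7 and 36.5, and it lay 13.8 kb outside the RefSeq span of that gene. Dpp6, an auxiliary subunit gene of potassium channels, had 17.3, 29.1 and 23.5 at chr5:27098456-27099251, 49.7 kb after the start.

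In 3 of the top 10 only the gene ends were known, and each region lay far from both. These were in Cep192, a centrosome scaffold (chr18:67858317-67858804, 19.7, 45.8 and 36.2, 26.6 kb from an end), in Clasp1, a protein of microtubule plus ends (chr1:118426156-118426920, 17.9, 39.5 and 29.4, 37.5 kb), and in Kpna1, an importin alpha (chr16:36008542-36009167, 18.8, 37.0 and 22.9, 25.6 kb). In each of the 10 strongest members replicate 1 gave the lowest and replicate 2 the highest fold enrichment. Fold enrichments belong to their own list, so this order is not a comparison of samples.

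**Figure D2:**
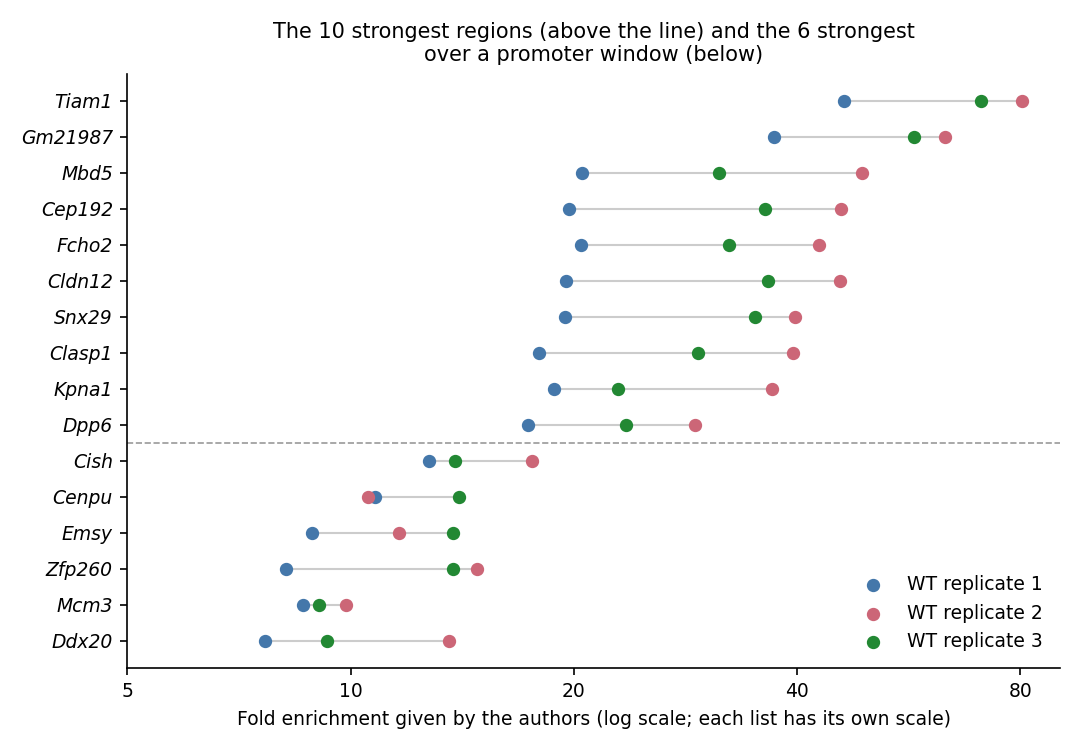
Fold enrichment given by the authors (horizontal axis, log scale) of the 10 strongest members, above the dashed line, and of the 6 whose promoter is shown, below it. Points are the 3 WT replicates and grey lines join the lowest and the highest. The 10 strongest start at 17.3 in replicate 1 (Dpp6), above the 12.7 of Cish in the same list.

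Near and distal members overlapped over most of their range and parted at both extremes. The 174 near members had mean percentiles from 8.06 to 97.8, with quartiles of 48.0 and 79.4 and a median of 62.5. The 98 distal members ran from 0.488 to 99.9, with quartiles of 38.8 and 94.3 and a median of 71.7. In replicates 1, 2 and 3 the highest fold enrichment of a near member was 12.7, 17.6 and 14.0, against 46.2, 80.4 and 70.7 for a distal one, while the medians were 5.19, 5.57 and 5.77 against 5.42, 6.77 and 6.17. With placed members split into 4 sets of equal size from the strongest to the weakest, 48.5%, 69.1%, 82.4% and 55.9% were near a start or end (68 members each). Among the 10 weakest placed members by mean percentile 1 was near. A low fold enrichment did not always go with a low −log10 q: the distal Lars2 region, among these 10, had 16.7, 8.99 and 13.4. Of the 42 members whose −log10 q reached 10 in every list, the share near a start or end, over those that could be placed, was 30.0%. Calls in every list chose the members, so these strengths are a description.

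**Figure D3:**
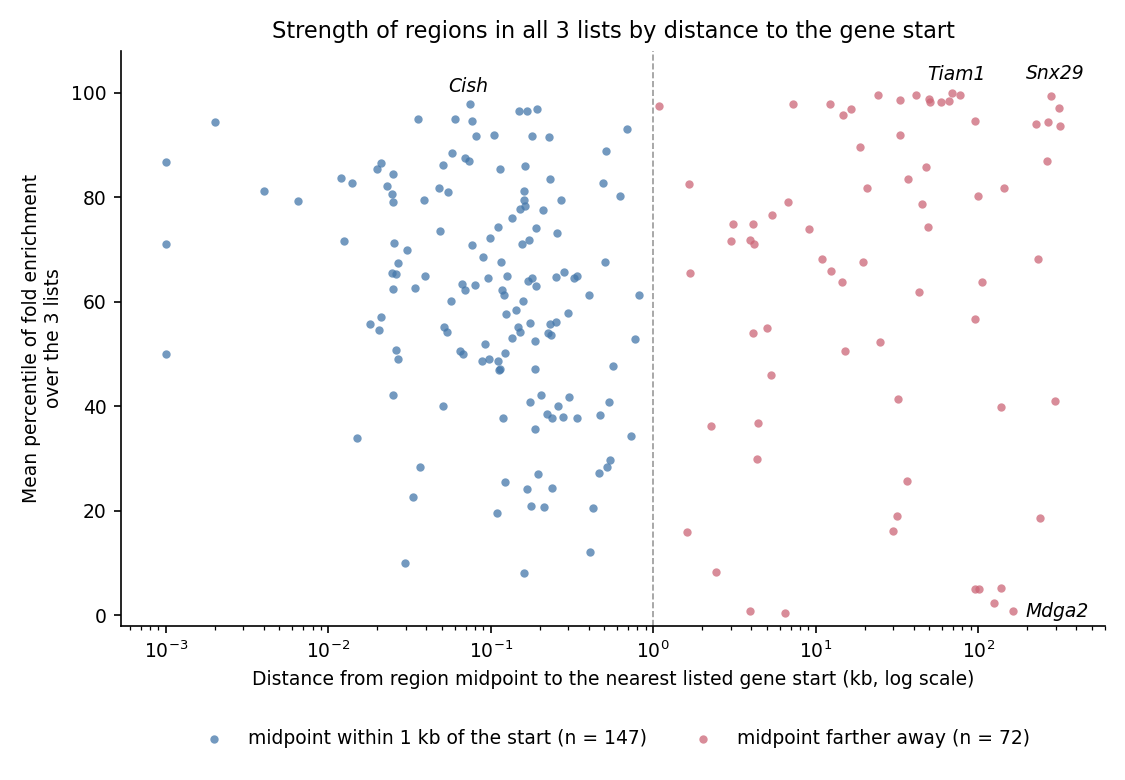
Mean percentile of fold enrichment over the 3 lists (vertical axis) against how far the midpoint lay from the nearest listed start of its gene (horizontal axis, kb, log scale) for the 219 members with a listed start. Each point is a member, the dashed line marks 1 kb, and 147 members lie to its left. The highest points, led by Tiam1, and the lowest, such as Mdga2, lie to the right of the line.

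Set within their lists, member peaks were of middling to high strength. The median fold enrichment of members was 5.30, 5.72 and 5.88 in replicates 1, 2 and 3, against 5.10, 4.73 and 4.99 over all peaks of each list. The median percentiles were 57.4, 76.3 and 71.5, and 149, 193 and 193 of the 275 lay above their list's median. Members made up 40.1% of the peaks of replicate 1, the shortest list, 13.2% of replicate 2 and 20.5% of replicate 3. The span common to all 3 peaks of a member ran from 19 to 4104 bp. Each of the 275 had exactly 1 peak per list and such a common span. The widest member, 4222 bp, was named for Gm21738 (chr14:19415577-19419798, 5.87, 3.59 and 5.30), and its nearest RefSeq coding gene end was 116 kb away. Its −log10 q values were high for these fold enrichments, at 78.7, 51.1 and 77.9 against member medians of 4.91, 7.72 and 7.44.

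Rank differed between lists for many members. The gap between a member's highest and lowest percentile had a median of 25.3 and ran from 0.146 to 88.1. Trim13, a ubiquitin ligase gene, had percentiles of 4.38, 92.5 and 74.5 in replicates 1, 2 and 3 (chr14:61599277-61599705). In Bptf, of the NURF remodelling complex, they were 75.2, 6.62 and 85.8 (chr11:107131504-107132441). The list with the lowest rank was thus replicate 1 at Trim13 and replicate 2 at Bptf.

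By fold enrichment, the 3 weakest members were distal and low in every list. Mdga2, a gene of neuronal synapse proteins, had fold enrichments of 2.37, 2.66 and 3.36 at chr12:67059187-67059758, 163 kb after the start. Cldn34d, of the claudin family, had 2.98, 2.00 and 2.21 (chrX:76598747-76599244), and E030030I06Rik had 2.68, 2.18 and 2.46 (chr10:22142425-22143131). Their −log10 q values were not all low. Mdga2 had 2.83, 6.25 and 10.7 and Cldn34d 8.51, 2.83 and 3.23, against member medians of 4.91, 7.72 and 7.44. E030030I06Rik, at 3.87, 1.89 and 2.91, lay below the median in every list. The member closest to being lost was in Erbin, an ERBB2-interacting scaffold gene, with −log10 q of 2.80, 1.37 and 4.19, followed by Pgghg, a glucosidase gene, with 2.08, 1.39 and 2.98. Just outside the rule, a region in Chrnb4, a nicotinic receptor gene, was called in replicates 2 and 3, at fold enrichments of 7.99 and 10.9 (chr9:55043159-55043641). One in Map2k1, the kinase MEK1, had 7.64 and 8.0 in the same replicates (chr9:64227755-64228126), and neither was in the list of replicate 1. Replicate 1 has the shortest list.

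In 4 genes a pair of members was found, 3 of them with one near the start and one distal. Slc35d1, a nucleotide sugar transporter gene, had a region 12.3 kb after its start (chr4:103202646-103203058, 11.9, 20.0 and 18.7) and one 0.691 kb after it (chr4:103214308-103214662, 7.76, 8.94 and 7.91), so the distal one was the higher in every list. In Cers6, a ceramide synthase gene, both were alike in level: 5.64, 4.72 and 4.51 at 0.122 kb (chr2:68861194-68861933) and 5.52, 5.52 and 5.37 at 12.4 kb (chr2:68873249-68874401). Rbpj, the DNA-binding effector of Notch, had 4.58, 4.53 and 4.06 at 0.541 kb before a listed start (chr5:53589150-53590460). Its other region had 7.44, 5.58 and 6.15 and lay 99.4 kb before a listed start and 64.6 kb outside the RefSeq span (chr5:53490750-53491168). Dock2, a Rac activator of blood cells, held a distal pair 137 kb apart, with 3.37, 4.40 and 4.02 (chr11:34543208-34545026, 240 kb after the start) and 2.89, 3.77 and 3.13 (chr11:34681678-34683473, 101 kb after it).

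Gene groups were then read against how often any coding gene held a member, which was 268 of 21900 genes of the RefSeq table, or 1.22%. Over 23 lists of genes, 47 of 1249 distinct genes had one (3.76%, 2.78 to 4.97), and 6 lists had none. Without replicate 1 the count was 79. Member genes were long, with a median of 46.1 kb against 17.1 kb over all coding genes, and the part of gene length in these shares was not tested. The lists were written with earlier results of these data known. They do not hold every gene of a group, so a count speaks for the listed genes only.

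Signalling genes of the MAPK, PI3K and phosphatase list had members at 8 of 98 (8.16%, 3.59 to 15.5), and 7 of the 8 were near a start or end. Ppp2r1a, the scaffold of the phosphatase PP2A, had 5.35, 7.28 and 5.36 (chr17:20945300-20945669), and Mapk3, the kinase ERK1, had 5.63, 4.17 and 5.78 (chr7:126759387-126759671). Dusp2, Ppp2cb, Map2k4 and Mapk8 also held members, so ERK, JNK and PP2A components and a nuclear MAPK phosphatase were all among them. The count was 2 when a −log10 q of at least 5 was asked for in every list, and 13 without replicate 1.

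Chromatin genes had 6 of 91 (6.59%, 2.46 to 13.8), and apart from the distal Mbd5 region each was near a start. Arid1a, a subunit of the BAF remodelling complex, had 6.36, 6.37 and 6.42 (chr4:133754273-133754674). The acetyltransferase gene Kat7 had 4.61, 6.24 and 6.57 (chr11:95309550-95310375), and the deacetylase gene Sirt1 had 4.52, 6.28 and 6.80 (chr10:63338925-63339224). Tet2 and Dnmt3a, which act on DNA methylation, completed the group.

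Genes of the centrosome, kinetochore and microtubules had 5 of 93 (5.38%, 1.77 to 12.1). Cep192, Clasp1 and Cenpu were described above, and the others were Cenpj, a centriole gene (5.97, 8.31 and 5.17, chr14:56567543-56567916, 4.12 kb after the start), and Cenpp. Vesicle genes had 5 of 110 (4.55%, 1.49 to 10.3). Next to Fcho2 and Snx29, these were Snx18, a sorting nexin gene (6.51, 6.35 and 7.53, chr13:113618462-113618768), Vamp4, of the SNARE membrane fusion family (5.71, 5.29 and 6.08, chr1:162570475-162570869), and Cltc, the clathrin heavy chain. Distal members of both groups, Cep192, Clasp1, Fcho2 and Snx29, were among the 10 strongest of all. The list of GTPases and their regulators had 3 of 74 genes (4.05%, 0.844 to 11.4), an interval that includes 1.22%. Members of these listed genes were all distal: Tiam1, Dock2 and Arhgap26, which switches off small GTPases (9.21, 9.08 and 11.8, chr18:38631632-38631989, 30.2 kb from an end). Other GTPase genes, such as Arf2 and Arl1, were not on the list and held members near a start.

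In the lists of NK lineage factors, NK receptors and cytotoxicity, members were found at 2 transcription factor genes, 1 receptor gene and 1 granzyme gene. The interval of each list's share included the 1.22% of all coding genes. Of 40 NK lineage transcription factor genes 2 had a member, both distal (5.00%, 0.611 to 16.9), and without replicate 1 the count was 6. Irf2, needed for NK cell maturation, had 4.86, 7.30 and 5.32 at chr8:46845250-46845567, 106 kb after the start. Nr3c1, the glucocorticoid receptor, had 4.06, 3.98 and 3.94 (chr18:39489567-39490433). Among 46 NK receptor and adaptor genes 1 did, the Ly49 family gene Klra5 (4.35, 4.82 and 4.65, chr6:129917472-129917838), at a site 4.24 kb outside its RefSeq span. Of 32 cytotoxicity genes 1 did (2 without replicate 1), the granzyme gene Gzmc (6.02, 6.95 and 6.46, chr14:56234387-56234955), 0.0140 kb before a listed start. Ly49 and granzyme genes lie in clusters of close copies, and how reads were assigned between copies was not given, so these 2 are uncertain. Ikzf1, Ikzf3 and Ncr1 had no region within 1 coding gene in any list, and the Ikaros family had 0 of 5 genes with a member.

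The cytokine, bZIP and NF-kappa-B lists had 2 genes each with a member. Their shares were 4.17% (0.509 to 14.3), 5.56% (0.680 to 18.7) and 7.69% (0.946 to 25.1), and each interval included the 1.22% of all coding genes. Without replicate 1 the count was 5 for the NF-kappa-B, NFAT, EGR and NR4A list, 3 for the cytokine list and 2 for the bZIP list. Of 48 cytokine receptor and JAK-STAT genes, Cish and Tgfbr1 had members, and Tgfbr1, a receptor of TGF-beta, was low in every list (4.46, 4.25 and 4.32, chr4:47352983-47353852). Of 36 AP-1 and related bZIP genes, Maff, a small Maf factor, had 4.90, 4.46 and 5.54 over its start (chr15:79347161-79348075). Junb, an AP-1 subunit, had 3.98, 4.82 and 4.87 at a site 2.27 kb after its start and 0.267 kb beyond its RefSeq span (chr8:84976306-84976642). Of 26 genes of the NF-kappa-B, NFAT, EGR and NR4A list, Rel, an NF-kappa-B subunit, had 6.01, 5.79 and 6.65 (chr11:23770752-23771506), and the immediate early gene Egr1 had 4.54, 4.39 and 4.08 (chr18:34859834-34860703). Percentiles of Maff, Junb and Egr1 averaged 49.1, 36.3 and 27.1, below those of Rel (79.4) and Cish (97.8).

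Genes of cell growth and protein turnover had members in lists whose intervals all included 1.22%. In the cell cycle list 2 of 40 genes had a member, Cdk6 (5.95, 8.13 and 6.28, chr5:3342081-3342383), a kinase of the entry into S phase, and its antagonist locus Cdkn2a (4.98, 8.77 and 6.72, chr4:89284836-89285766), and both regions lay over 1 kb before a listed start, by 1.66 and 3.11 kb. In the replication and repair list 2 of 50 did, Mcm3 and Nbn, of the MRN break repair complex (4.16, 7.09 and 7.41, chr4:15957819-15958582). Translation genes had 2 of 68, the ribosomal protein genes Rps19 (6.31, 12.0 and 10.3, chr7:24883970-24884855) and Rpl4 (5.53, 6.14 and 7.67, chr9:64173186-64173510), each at its start. Ubiquitin genes had 2 of 84 (4 without replicate 1), the deubiquitinase gene Otud7b (6.36, 5.02 and 7.59, chr3:96104382-96104807) and Cul1, the scaffold of SCF ligases (5.10, 5.16 and 6.44, chr6:47454448-47454813). RNA processing had 1 of 86, the helicase gene Ddx5 (5.23, 5.21 and 4.19, chr11:106788267-106789095), and the Notch list had Rbpj alone of 22. Without replicate 1 both of these lists had 3 genes, and without replicate 3 the RNA processing list had 4.

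Lists without a member were mitochondrial respiration, import and ribosome genes (0 of 109, with an upper limit of 3.33%), survival and cell death (0 of 37, 9.49%), and the markers of T cells (0 of 19, 17.6%), B cells (0 of 18, 18.5%) and myeloid cells (0 of 24, 14.2%). Without replicate 1 the mitochondrial list had 1 gene and the survival list 2. The mitochondrial list is not complete. Mrpl52, of the mitochondrial ribosome, and Cox14, of respiratory complex IV assembly, were not on it and held members at their starts. The limits of the marker lists reach far above 1.22%, so these counts do not set them apart from coding genes at large. A gene with or without a region is not thereby expressed or silent.

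**Figure D4:**
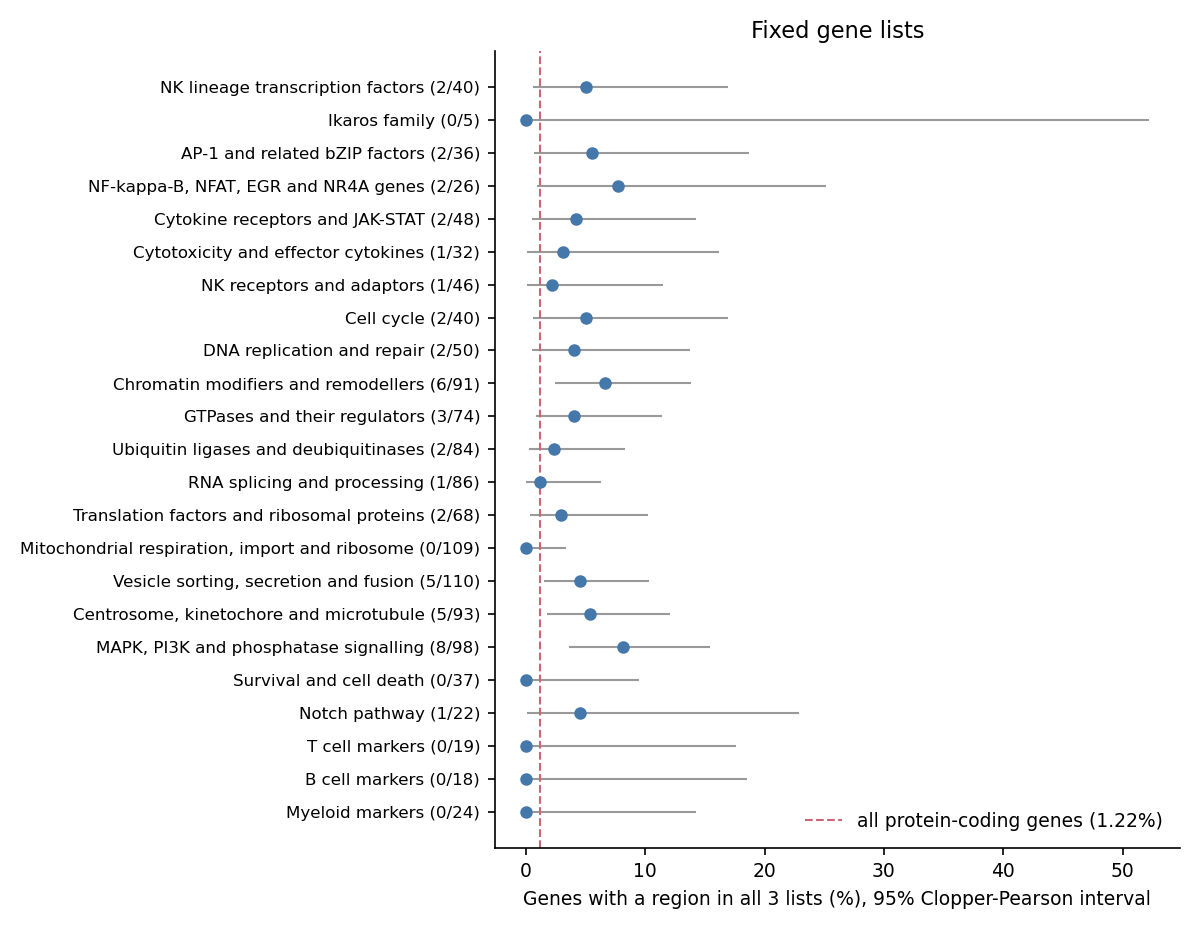
Share of genes with a member in each of the 23 lists (horizontal axis, percent, with 95% Clopper-Pearson intervals as grey lines) and, as a dashed line, among all coding genes (1.22%). Counts stand beside the list names. The interval lies wholly above the line for 4 lists, those of chromatin, vesicle, centrosome and signalling genes.

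Genes that the authors mark as transcription factors made up 21 of the 271 member genes (7.75%, 4.86 to 11.6). Among genes with a region of exactly 2 lists the share was 7.41%, and with a region of 1 list 6.22%, both within that interval. Of the 22 regions of marked genes 14 were near a start or end (63.6%), close to the 64.0% of all placed members. Zfp260 was the strongest of them.

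Gene assignment held for most members in the second annotation. Of the 275, 251 overlapped the same gene and no other coding gene of the RefSeq table, 13 overlapped it along with another, and 11 overlapped no coding gene there. The 11 included some of the stronger members, Gm21987, Cldn12 and Vmn2r71, as well as Klra5, Junb and Egr1, 0.504 kb from its span. The Vmn2r71 region, in a vomeronasal receptor gene, lay 16.2 kb outside the span (chr7:85598850-85599245, 9.04, 17.7 and 13.4). For these 11 the words within a gene rest on the authors' column alone. Whether a region is exonic or intronic was not assigned.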

How the data were processed

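Ikaros ChIP-seq of 3 WT samples of cultured spleen NK cells was used. Per the submitters' processing notes, the authors worked on the build mm10 with MACS2, Subread, SAMtools, Picard and edgeR 3.20.0, with no roles stated. The sources used here do not give the control library, the cutoffs or the gene annotation. Per the file headers, the authors deposited for each peak a fold enrichment (a linear ratio), −log10 p and q values, a score, and its distance to genes. Peak names in each list carry 1 library. The lowest −log10 q values were 1.15, 1.06 and 1.12. The lists had 800, 2414 and 1595 rows, 1 per peak and gene, for 685, 2084 and 1342 peaks. Library depth is unknown.

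Peaks sharing at least 1 base were merged. Genes came from the authors' column, and starts, gene ends and promoter letters from RefSeq tables of GRCm38.p6, which matched the symbols of 272 members. Shares have 95% Clopper-Pearson intervals. No test across regions was made. Alternatives were stricter q, other overlaps, equal list lengths, other distances, other strength measures, the RefSeq gene table and leaving out each replicate. Merging and the gene rule were tested on simulated data, and placing relative to gene starts was not. Python 3.11.15, NumPy 2.4.6, pandas 2.3.3, SciPy 1.17.1 and matplotlib 3.10.9 were used.

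Members, lists and tests were chosen with earlier results of these data known. Named were the 10 strongest members by mean percentile, the 3 weakest, the 3 with the widest gap between lists, genes with 2 or more members, up to 4 members of each gene list, the 6 promoters shown, the regions just inside and outside the rule, and Ikzf1, Ikzf3 and Ncr1. Some members that the rule names are not reported here. The other members of the signalling, chromatin, vesicle and centrosome lists, those near another gene's start and those outside their RefSeq span were named after their values were seen. So were Lars2, Phf21a, Smarcd2 and the members named as not on a gene list.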

Additional observations from a re-analysis of the deposited data

How the results depend on the processing

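No paired analysis was possible because only WT lists were used and no groups were compared. Stricter or shorter lists leave fewer regions by construction: with a minimum −log10 q of 5 there were 110 members, with 10 there were 42, and with each list held to 685 peaks there were 169. Leaving out 1 replicate gave 305 to 528 regions, the highest without replicate 1, while other overlaps gave 274 and 275 and 321 were found by the RefSeq gene table. The share near a start or end was 58.5% within 500 bp, 71.3% within 5 kb, 54.6% with a minimum −log10 q of 5 and 54.0% for regions over the start or end itself. It was 66.5% within 2 kb and 65.2% to 66.7% without 1 replicate. Counting regions shared by at least 2 lists, 90 list genes had one. The count was 21 with a minimum −log10 q of 5, 50 to 79 without 1 replicate, with 79 without replicate 1, and 54 by the RefSeq gene table. Single lists moved by over 1.5 times in 12 of 23 cases with at least 2 lists, in 13 with the stricter q, in 9 without replicate 1, in 0 without replicate 2, in 1 without replicate 3 and in 2 by the RefSeq gene table. Between 15 and 19 placed members ranked above the first near a start in every alternative for the number of members. Percentiles were kept from the full lists, so the 17 under stricter q, other overlaps and equal list lengths follow largely from the procedure. The number was 19, 16 and 15 without replicates 1, 2 and 3, and 16 by the RefSeq gene table. Median percentiles moved by less than the spread between lists. Other causes were not tested, and without depth a site missing from a list cannot be told apart from one too shallow to call.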
